A study of Homo sapiens with 18 samples.

Results

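Mitochondria carry a small circular genome of their own, and the proteins that copy it, transcribe it and protect its RNA are all encoded in the nucleus. The genes described here are 10 nuclear genes of that machinery, namely TFAM, POLRMT, TFB2M, TEFM, TFB1M, LRPPRC, SLIRP, POLG, TWNK and NRF1. They were chosen by function and by symbol, with no measured value in the rule, and all 10 were found among the 58302 genes of the count table, each in 1 row. RNA was sequenced from U87 (U87MG), an established human glioblastoma cell line, in 4 libraries of total RNA. The 2 control libraries came from cells under normal growth conditions, and the 2 Erastin libraries from the same line after 10 μM Erastin for 72 h. Erastin acts on system Xc-, the antiporter that takes up cystine in exchange for glutamate, and is widely used to trigger ferroptosis, in which membrane lipids are peroxidized. All values come from 1 line, and whether the replicates were separate cultures is not given in the sources used here, so p-values measure only the spread between these libraries. Whether dead cells were removed before extraction is also not given there. In such bulk RNA, fewer cells of a type and less RNA per cell cannot be told apart.

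In mitochondria, POLRMT is the RNA polymerase. TFAM packs the DNA into nucleoids and bends the promoters, TFB2M helps POLRMT melt them, and TEFM keeps the polymerase moving along the template. The resulting long transcripts are cut into mRNA, rRNA and tRNA, the small rRNA is methylated by TFB1M, and the mRNAs are held stable by the paired proteins LRPPRC and SLIRP. The DNA itself is copied by the polymerase POLG behind the helicase TWNK (Twinkle), and the nuclear factor NRF1 activates the genes of many of these proteins.

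The libraries held between 29412656 and 31513519 counts, and the 10 genes took 0.0521% to 0.0565% of them. The level of a gene is given as CPM, its count as a share of the library total on the usual CPM scale, after scaling the libraries by TMM, a factor that corrects for differences in RNA composition. Mesenchymal glioma markers were abundant in the control libraries, with VIM at 2547 and 2482 CPM and CD44 at 1404 and 1406 CPM. Both were called lower under Erastin, at 1609 and 1720 CPM and at 1055 and 1134 CPM. NES, at 41.8 and 31.3 CPM in control and 3.51 and 2.45 CPM in Erastin libraries, was also called lower. GFAP and OLIG2 lay between 1.32 and 2.88 CPM in every library and did not pass the test, and S100B and SOX2 were under 1 CPM throughout. The summed level of 8 glial and mesenchymal markers lay between 8959 and 9346 CPM in control and between 3145 and 3381 CPM in Erastin libraries. Most of that difference was FN1, fibronectin, at 4961 and 5423 CPM in control and 473 and 520 CPM in Erastin libraries. The level of 14 genes of dividing cells together lay between 2071 and 2161 CPM in control and between 560 and 573 CPM in Erastin libraries, and all 14 were called lower (23.7% of all genes tested were). Of 12 markers of immune, endothelial, epithelial, neuronal and oligodendrocyte cells, 9 were under 1 CPM in every library and AIF1, CD3E and MOG had no count. The sum of the 12 was 7.49 to 9.08 CPM in control and 4.05 to 4.14 CPM in Erastin libraries. Of the endothelial markers, PECAM1 was called lower, with 138 and 188 counts in control against 31 and 33 under Erastin, and VWF higher, with 4 and 4 counts against 17 and 32. The part of these shifts in the results below was not tested.

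The starts of these genes are shown first, because NRF1 and factors of the ETS family (among them GABPA) are known for binding at promoters of mitochondrial genes. RefSeq promoters (GRCh38.p14, 250 bases before to 50 after the start site) were held for 8 of the 10 genes, all but TWNK and NRF1. On both strands they were searched for the NRF1 letters GCGCANGCG and the ETS letters CCGGAAG, and no match of one overlapped a match of the other. The NRF1 letters were found at 4 of these 8 genes, beside 9.02% of the 27305 genes in the reference table. In the pathway lists described further on, the share ran from 7.69% (biogenesis regulators) to 37.5% (nucleoid and proteases), with 36.4% for replication partners. Each window of 30 bases below reads 5′ to 3′ on the gene's strand, with the matched letters in capitals, and overlapping matches run together in POLRMT and TFB1M.
TFAM, chr10:58385337-58385366, plus strand: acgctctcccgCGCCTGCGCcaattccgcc
POLRMT, chr19:633540-633569, minus strand: cggcgcggGCGCATGCGCAGGCGcgggccg
TFB2M, chr1:246566259-246566288, minus strand: gctccgctgttCGCATGCGCaggctctagt
TFB1M, chr6:155314597-155314626, minus strand: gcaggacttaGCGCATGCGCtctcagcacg

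The ETS letters were likewise found at 4 of the 8 genes, beside 12.2% of all genes in the table. Across the pathway lists that share ran from 12.5% (nucleotide supply) to 37.5% (nucleoid and proteases). Whether the genes described here differ from those lists in either motif was not tested. POLRMT and TFB1M held both motifs, TEFM and SLIRP held the ETS letters without the NRF1 letters, and LRPPRC and POLG held neither in this window. The stretch of SLIRP lies in both of its listed promoters. A match of letters is a description of the sequence, and binding was not measured here.
POLRMT, chr19:633613-633642, minus strand: cctgggagtctaCTTCCGGctggggtttcc
TEFM, chr17:30906227-30906256, minus strand: agcacgcaggaaCCGGAAGtcaatggagga
TFB1M, chr6:155314552-155314581, minus strand: ccgcggtcatcgCTTCCGGtgggataggtc
SLIRP, chr14:77708015-77708044, plus strand: ataccctctgatCCGGAAGcagattctctc

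Under Erastin the 10 genes did not move together. TFB1M, POLRMT and SLIRP fell, TWNK rose, and TFAM, TFB2M, TEFM, LRPPRC, POLG and NRF1 did not pass the test, an adjusted p under 0.05 in edgeR's quasi-likelihood test over 16751 genes. The 1 of 10 called higher stands beside 23.2% of all genes tested, and the 3 of 10 called lower beside 23.7%. None of the 10 also reached a log2 fold change of 1 in size, which 15.6% of all genes did. Their median log2 fold change was 0.01, between −0.92 for TFB1M and 0.38 for TWNK, and the median of all genes was −0.003. Both Erastin libraries lay above both controls for 3 of the 10 genes (36.7% of all genes) and below them for 4 (36.9% of all genes). Within a group, the replicates of these genes differed at most 1.25-fold in control and 1.23-fold in Erastin libraries. Of the genes tested that had counts in every library, 14.4% differed more than 1.5-fold between the control replicates and 14.6% between the Erastin replicates. Whether the 10 genes differ from these shares was not tested.

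**Figure D1:**
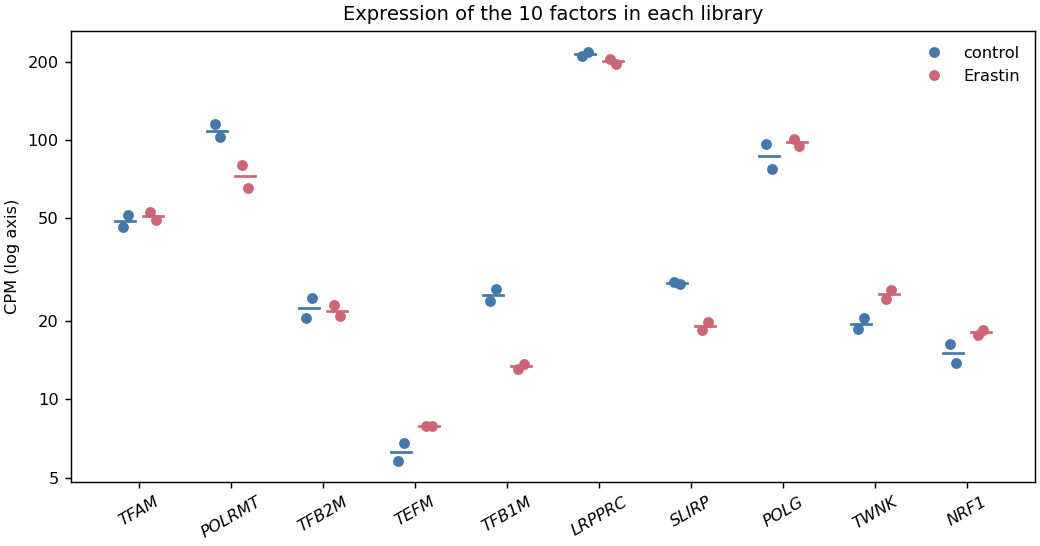
CPM of each of the 10 genes (log axis) in the 2 control libraries (blue) and the 2 Erastin libraries (red), with a line at the mean of each group. The red points of TFB1M, POLRMT and SLIRP lie below the blue ones, those of TWNK lie above, and those of TFAM, TFB2M and POLG overlap the control range.

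Among the genes that start transcription, the polymerase POLRMT (ENSG00000099821, chr19:617224-633604, minus strand) fell while its partners TFAM and TFB2M did not pass the test. POLRMT stood at 115 and 102 CPM in the control libraries and at 80.2 and 65.1 CPM in the Erastin libraries. Both treated libraries were below both controls, a mean of 72.7 ± 10.6 against 108 ± 8.94 CPM (SD, n = 2 each). Its log2 fold change was −0.58 (standard error 0.0991, 95% interval −0.80 to −0.36), with an adjusted p of 0.0005001 in edgeR's quasi-likelihood test.

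TFAM (ENSG00000108064, chr10:58385022-58399221, plus strand), the packaging protein of mitochondrial DNA, was measured at 46.1 and 51.4 CPM in control and at 52.7 and 49.2 CPM in Erastin libraries. The groups overlapped, and the log2 fold change was 0.06 (95% interval −0.13 to 0.26, adjusted p 0.5957 by edgeR). TFB2M (ENSG00000162851, chr1:246540560-246566324, minus strand) was measured at 20.5 and 24.5 CPM in control and at 23.1 and 20.9 CPM in Erastin libraries. These groups overlapped too, at a log2 fold change of −0.03 (95% interval −0.31 to 0.24, adjusted p 0.8465 by edgeR). A fall of POLRMT's size lies outside both intervals. Within each library, the ratio of TFAM to POLRMT counts was 0.402 and 0.503 in control and 0.657 and 0.755 under Erastin. That ratio was 1.57-fold higher in the treated libraries, and the ratio of POLRMT to TFB2M moved from 5.59 and 4.17 to 3.47 and 3.12. Neither ratio overlapped between the groups, but with 2 libraries against 2 the exact two-sided permutation test cannot go below 0.333, the value it gave for both. Each ratio given here and below holds a gene called lower, so its shift is not separate from that fall. How often ratios of other gene pairs do not overlap was not computed.

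TEFM (ENSG00000172171, chr17:30897336-30906820, minus strand), the elongation factor, had the lowest counts of the 10 genes, 177 and 211 in control and 236 and 248 in Erastin libraries. In CPM this was 5.79 and 6.79 against 7.89 and 7.89, so both treated libraries were above both controls. The log2 fold change of 0.33 had a standard error of 0.184 and did not pass the test (adjusted p 0.1687 by edgeR). Of its exon bases, 26.1% are shared with other genes, and reads on shared bases were left out by the counting.

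The rRNA methyltransferase TFB1M (ENSG00000029639, chr6:155257509-155314493, minus strand), related to TFB2M, showed the largest change of the 10 genes. Its counts were 734 and 829 in control cells and 392 and 432 after treatment. As levels, these were 24.0 and 26.7 against 13.1 and 13.7 CPM, and the groups lay well apart. The mean fell from 25.3 ± 1.90 to 13.4 ± 0.455 CPM (SD, n = 2 each), and the log2 fold change was −0.92 (standard error 0.121, 95% interval −1.18 to −0.65, adjusted p 6.604e-05 by edgeR). The ratio of TFB2M to TFB1M counts was 0.856 and 0.918 in control and 1.76 and 1.52 in Erastin libraries (1.85-fold higher, exact permutation p 0.333, the smallest possible).

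Of the 74 genes in the pathway lists described further on, those closest to TFB1M across the 4 libraries were ATAD3B, PRIMPOL and SUCLG1, at distances of 0.323, 0.331 and 0.341 between log2 CPM profiles centred on their means. ATAD3B, a nucleoid-associated membrane protein, had a log2 fold change of −0.65 (standard error 0.0932). PRIMPOL, a primase that restarts stalled DNA copying, had −0.60 (0.180), and SUCLG1, a subunit of succinyl-CoA synthetase in the citric acid cycle, had −0.62 (0.0733). All were called lower, PRIMPOL with an adjusted p of 0.01701 by edgeR that was 0.0597 by DESeq2 and 0.0804 without Erastin replicate 1. These profiles share the same 4 libraries, and likeness over so few points is a description.

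Of the paired proteins that stabilize mitochondrial mRNA, SLIRP fell and LRPPRC did not pass the test. SLIRP (ENSG00000119705, chr14:77708071-77761104, plus strand), a small RNA-binding protein, was measured at 28.4 and 27.7 CPM in control and at 18.6 and 19.8 CPM in Erastin libraries. The groups did not overlap, and SLIRP fell by 0.55 on the log2 scale (standard error 0.109, 95% interval −0.79 to −0.31, adjusted p 0.001466 by edgeR). Of its exon bases, 14.9% are shared with SNW1 and C14orf178.

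LRPPRC (ENSG00000138095, chr2:43886508-43996005, minus strand) had the most counts of the 10 genes and stood at 211 and 218 CPM in control and 204 and 196 CPM in Erastin libraries. Both treated libraries lay below both controls by a small margin, and the log2 fold change of −0.10 did not pass the test (95% interval −0.24 to 0.04, adjusted p 0.2379 by edgeR). The ratio of LRPPRC to SLIRP counts was 7.43 and 7.87 in control and 11.0 and 9.90 in Erastin libraries. It was 1.36-fold higher in the treated cells, without overlap (exact permutation p 0.333, the smallest possible).

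**Figure D2:**
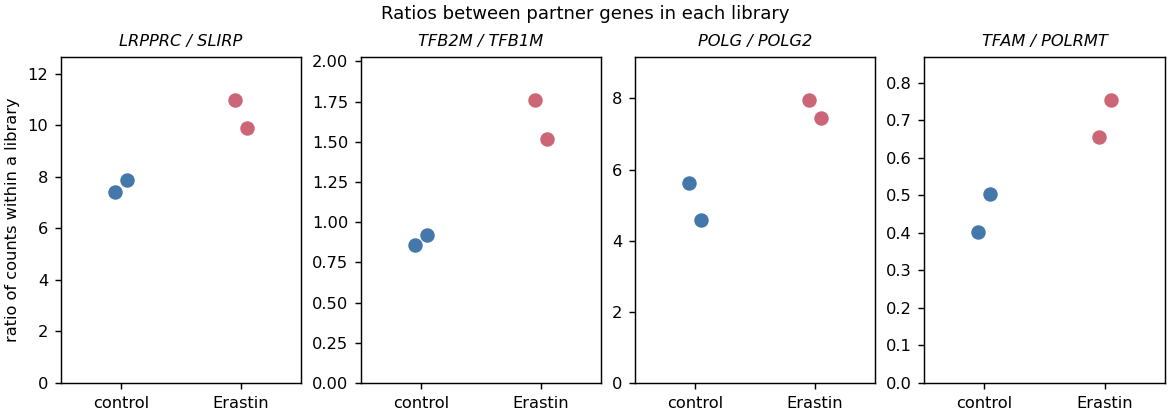
Ratio of counts between partner genes within each library (linear axes from 0), 1 point per library, control in blue and Erastin in red. In each of the 4 panels both Erastin points lie above both control points, for TFB2M over TFB1M by 1.85-fold on average.

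Of the enzymes that copy the DNA, the helicase TWNK (ENSG00000107815, chr10:100987367-100994401, plus strand) was higher after Erastin. It was measured at 18.7 and 20.5 CPM in control and at 24.4 and 26.4 CPM in Erastin libraries. The groups did not overlap, and the log2 fold change was 0.38 (standard error 0.115, 95% interval 0.12 to 0.63, adjusted p 0.01835 by edgeR). This call was lost without control replicate 1 (0.31, adjusted p 0.0811) and without Erastin replicate 2 (0.32, adjusted p 0.13).

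The polymerase POLG (ENSG00000140521, chr15:89305198-89334861, minus strand) was measured at 96.3 and 77.1 CPM in control and at 101 and 94.7 CPM in Erastin libraries. The groups overlapped through control replicate 1, and the log2 fold change was 0.17 (95% interval −0.04 to 0.39, adjusted p 0.1679 by edgeR). Without that library it was 0.34, and without control replicate 2 it was 0.013. POLG shares 7.66% of its exon bases with FANCI, a DNA repair gene that went from 3142 and 3309 counts in control to 774 and 866 in Erastin libraries. POLG2, which encodes the accessory subunit of the same polymerase, had 524 and 522 counts in control and 378 and 399 in Erastin libraries. POLG2 fell by 0.42 on the log2 scale (standard error 0.127, adjusted p 0.01705 by edgeR, 0.0592 by DESeq2). That call was lost without Erastin replicate 1 (adjusted p 0.0761) and without Erastin replicate 2 (0.0736). The ratio of POLG to POLG2 counts was 5.62 and 4.59 in control and 7.97 and 7.46 in Erastin libraries, 1.52-fold higher under treatment (exact permutation p 0.333, the smallest possible).

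NRF1 (ENSG00000106459, chr7:129611714-129757082, plus strand), the nuclear activator, was measured at 16.4 and 13.9 CPM in control and at 17.7 and 18.6 CPM in Erastin libraries. Both treated libraries were above both controls, but the log2 fold change of 0.26 did not pass the test (95% interval −0.03 to 0.55, adjusted p 0.1275 by edgeR). Of the 4 genes whose promoter holds the NRF1 letters, POLRMT and TFB1M fell and TFAM and TFB2M did not pass the test. The gene NFE2L1, which some sources also call NRF1, is a different factor that controls proteasome genes. It rose from 14710 and 13255 counts to 20510 and 21819 (log2 fold change 0.60, standard error 0.071, adjusted p 2.662e-05 by edgeR).

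**Figure D3:**
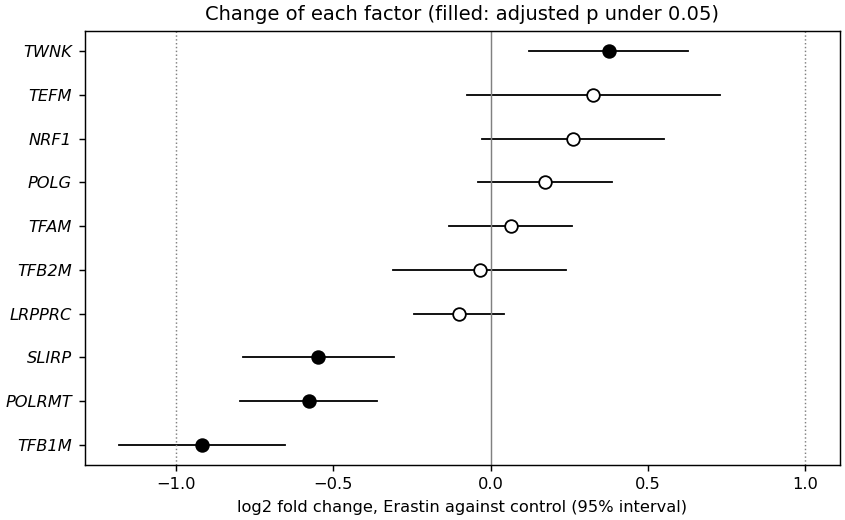
Log2 fold change of each gene, Erastin against control, with its 95% interval; filled circles passed an adjusted p of 0.05 and dotted lines mark a log2 fold change of 1 in size. TFB1M at −0.92, POLRMT at −0.58 and SLIRP at −0.55 lie to the left, TWNK at 0.38 to the right, and the intervals of the other genes cross 0.

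To compare levels between genes, CPM was divided by full exon length in kilobases. This length includes bases shared with other genes, on which reads were not counted, so genes with such bases read low. The shared part was 26.1% for TEFM, 14.9% for SLIRP, 7.86% for TFB1M and 7.66% for POLG. It was 4.2% for TWNK, 2.7% for NRF1 and 0 for LRPPRC, POLRMT, TFB2M and TFAM. Order and overlaps can differ over the counted bases alone, for which they were not computed. In control libraries LRPPRC (22.0 ± 0.528 CPM per kb, SD, n = 2) and POLRMT (21.2 ± 1.75) were highest, and their ranges overlapped. POLG (14.5 ± 2.27) and TFB2M (12.2 ± 1.51) followed and overlapped each other, then SLIRP (10.7 ± 0.180), which overlapped neither neighbour. TFB1M (9.26 ± 0.693) and TFAM (8.69 ± 0.668) overlapped each other. TWNK (5.59 ± 0.363), NRF1 (3.67 ± 0.436) and TEFM (1.95 ± 0.220) were lowest, with no overlap among them.

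In the Erastin libraries the order of these levels, again by full exon length and with the same limit, was different in the middle and the same at both ends. LRPPRC led alone at 20.5 ± 0.615 CPM per kb (SD, n = 2), and POLG (16.3 ± 0.700) now stood above POLRMT (14.2 ± 2.07). TFB2M (11.9 ± 0.851) and TFAM (9.08 ± 0.436) came next, then SLIRP (7.29 ± 0.325) and TWNK (7.25 ± 0.412), whose ranges overlapped. TFB1M moved from the sixth place to the eighth, at 4.91 ± 0.166, just above NRF1 (4.40 ± 0.149), and TEFM (2.45) stayed last. Between the 2 groups the summed level of the 10 genes was 569 to 582 CPM in control and 512 to 543 CPM in Erastin libraries.

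The other nuclear genes of mitochondrial DNA upkeep were read from 5 lists of 74 genes, all tested. Of these, 19 were called higher and 21 lower, and 6 passed the fold threshold, 1 upward and 5 downward. Over all genes tested, 23.2% were called higher, 23.7% lower and 15.6% past the fold threshold. The median log2 fold change of the 74 genes was 0.08, and the median size of change was 0.29 against 0.43 over all genes. Calls upward dropped to 12 without Erastin replicate 1, and calls downward to 13 without Erastin replicate 2. Over all genes, calls upward dropped from 3892 to 2973 and calls downward from 3977 to 3320 in those settings.

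Among 13 replication partners, 6 were called lower, none higher and 7 neither (23.7% and 23.2% of all genes were called lower and higher), at a median of 0.09. The largest fall was that of FEN1, a flap nuclease that works in nuclear as well as mitochondrial DNA copying. It had 2895 and 2734 counts in control and 882 and 923 in Erastin libraries (log2 fold change −1.63, standard error 0.0813, adjusted p 2.1e-08 by edgeR), and the genes of dividing cells fell with it. SSBP1, the single-stranded DNA-binding protein of the mitochondrial fork, had 1129 and 1535 counts in control and 1206 and 2432 in Erastin libraries. Those groups overlapped, and the log2 fold change of 0.45 did not pass the test (standard error 0.229, adjusted p 0.1313). With 1 library left out, that value was 0.84 (Erastin replicate 1), 0.25 (control replicate 1), 0.67 (control replicate 2) and −0.10 (Erastin replicate 2). With all 4 libraries SSBP1 passed edgeR's test with no low-count filter (0.44, standard error 0.096, adjusted p 2.81e-05). It also passed with a replicate block (0.40, standard error 0.106, adjusted p 0.00442 by edgeR). The Erastin replicates of SSBP1 were 1.92-fold apart, and whether it passed depended on the setting.

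Among 28 genes of transcript termination and RNA handling, 9 were called higher, 1 lower and 18 neither (23.2% and 23.7% of all genes were called higher and lower), at a median of 0.13. The largest rise was that of PTCD1, a pentatricopeptide protein of mitochondrial RNA metabolism, at 56 and 51 counts in control and 89 and 111 in Erastin libraries (log2 fold change 0.91, standard error 0.296, adjusted p 0.02518 by edgeR, 0.0905 by DESeq2). Its adjusted p was 0.0723 without control replicate 2 and 0.11 without Erastin replicate 2. The only call downward was MRM1, an rRNA methyltransferase, at 13 and 139 counts in control and 6 and 10 in Erastin libraries. That call rested on 1 library: the log2 fold change of −3.22 (adjusted p 0.01029) became −0.71 (adjusted p 0.686) without control replicate 2.

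Among 14 regulators of mitochondrial biogenesis, 5 were called higher (23.2% of all genes), 5 lower (23.7% of all genes) and 4 neither, at a median of 0.03. This list also holds NFE2L1, described above as a different factor from NRF1, and it is among those called higher. PPARGC1A, the coactivator PGC-1α that works with NRF1 and nuclear receptors, fell from 303 and 345 counts to 94 and 135 (log2 fold change −1.50, standard error 0.207, adjusted p 9.662e-05 by edgeR). The orphan receptor ESRRG fell from 149 and 126 counts to 53 and 26 (−1.78, standard error 0.357, adjusted p 0.001491). In the other direction SIRT1, a deacetylase that acts on PGC-1α, rose from 576 and 670 counts to 1163 and 1133 (0.89, standard error 0.111, adjusted p 4.383e-05). The ETS factor GABPA, also named NRF2 in older sources, had 1499 and 1667 counts in control and 1550 and 1757 in Erastin libraries, groups that overlapped (0.07, standard error 0.086, adjusted p 0.546).

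Among 9 genes of nucleotide supply, 2 were called higher (23.2% of all genes), 4 lower (23.7%) and 3 neither, at a median of −0.16. RRM2B, the ribonucleotide reductase subunit that serves cells outside S phase and is a known p53 target, rose from 3171 and 3105 counts to 8810 and 9593 (log2 fold change 1.56, standard error 0.067, adjusted p 6.119e-09 by edgeR). TYMP, which breaks down thymidine, was low throughout, with 51 and 57 counts in control and 25 and 18 in Erastin libraries (−1.31, standard error 0.427, adjusted p 0.02456, 0.0889 by DESeq2). That call was lost without either control replicate (adjusted p 0.0509 and 0.0936) and without Erastin replicate 2 (0.1). Among 10 nucleoid proteins and matrix proteases, 3 were called higher and 5 lower, beside the same shares of all genes, and 2 neither, at a median of −0.17. CLPX, the unfoldase of the matrix protease ClpXP, showed the largest rise there, at 0.28 (standard error 0.0749, adjusted p 0.009527, 0.0781 without Erastin replicate 1), and ATAD3B, described above, the largest fall.

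**Figure D4:**
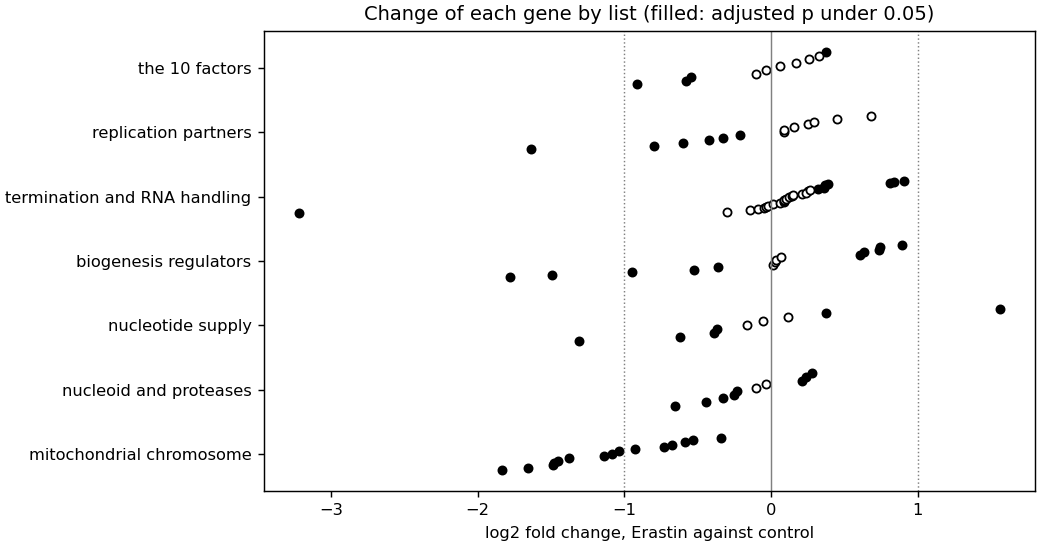
Log2 fold change of every tested gene, 1 point per gene, for the 10 factors, the 5 pathway lists and the mitochondrial chromosome; filled points passed an adjusted p of 0.05 and dotted lines mark a log2 fold change of 1 in size. The 15 genes of the mitochondrial chromosome all lie left of 0, whereas the other rows spread to both sides.

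The genes that this machinery transcribes, 13 mRNAs and 2 rRNAs of the mitochondrial chromosome, were all called lower (23.7% of all genes were), and 9 of the 15 passed the fold threshold (15.6% of all genes did). Their median log2 fold change was −1.08, from −1.83 for MT-CO3 to −0.34 for MT-ND6, so the change of POLRMT, at −0.58, was smaller in size than that median and that of TFAM was near 0. Their share of all counts was 7.85% and 7.23% in control and 2.80% and 3.54% in Erastin libraries. These are levels of RNA, and neither the rate of transcription nor the amount of mitochondrial DNA was measured in these libraries.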

How the data were processed

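The authors mapped the reads to hg38 with HISAT2 (2.1.0 in the submitters' processing notes) and deposited raw, unstranded read counts per gene. Per the file header these came from featureCounts 2.0.3 with the annotation of Ensembl release 90, and reads on bases shared by genes were counted for none. Shared bases were worked out only for the 10 genes, so counts of the other genes can also be low through such bases. The deposited values carried no decimals, as estimated counts would have, and 0 of them changed on rounding. Control and Erastin libraries were compared with edgeR 4.0.16 under R 4.3.3 (low counts removed by filterByExpr at a minimum of 10, TMM, quasi-likelihood test, two-sided p-values adjusted by the Benjamini-Hochberg method over 16751 genes). Genes were called at an adjusted p under 0.05, and the fold threshold was 1 in size on the log2 scale. The common biological coefficient of variation was 10.3%. No pair of libraries held identical counts. The fit was tested on simulated data, whose outcome is not given here and on which no result rests.

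The 10 genes, the gene lists and the tests were chosen with earlier results of these data known. All 10 are named. From each pathway list the text names the genes past both thresholds, or else the largest called rise and fall. POLG2, SSBP1, PPARGC1A, GABPA, NFE2L1 and the 3 profiles nearest to the most changed gene are named always. Alternatives were DESeq2 1.42.0, other scalings and filters, a replicate block, read pairs (counts divided by 2) and each library left out. Same-numbered libraries are not said to belong together. Gene coordinates are those of the count table. Intervals cover the fitted error, and PCR duplicates were not marked by molecular identifiers, so counts overstate the precision. ChIP-seq and HiChIP samples were not analysed here.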

Additional observations from a re-analysis of the deposited data

How the results depend on the processing

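TEFM, with 177 to 248 counts, had the fewest counts of the 10 genes and the largest standard error, 0.184. TFB1M, POLRMT and SLIRP were called lower under every alternative. Their log2 fold changes ranged from −0.99 to −0.85, from −0.74 to −0.44 and from −0.59 to −0.50 when libraries were left out in turn. The number of the 10 genes called higher ranged from 0 to 1 when libraries were left out. Of the pathway genes, 12 to 21 were then called higher and 13 to 20 lower. The value of TFAM lay between −0.016 and 0.136 and that of TFB2M between −0.159 and 0.09 without 1 library, and TFB2M was 0.014 with library totals, so neither has a settled sign. SSBP1 ranged from −0.10 (without Erastin replicate 2) to 0.84. Library totals moved the median of all genes to 0.05. With a replicate block, 1 of the 10 genes was called higher and 3 lower, as without it, and SSBP1 passed the test (0.40, adjusted p 0.00442), as it did with no low-count filter (0.44, adjusted p 2.81e-05). POLG ranged from 0.013 to 0.339 without 1 library. The deviations of same-numbered libraries correlated at 0.0175 across all genes tested. A value over all genes cannot decide whether same-numbered libraries belong together, and that was not tested. DESeq2 did not call POLG2, PRIMPOL, PTCD1 or TYMP (adjusted p 0.0592, 0.0597, 0.0905 and 0.0889). Over all alternatives, 113 values of the 10 genes and 170 of the named pathway genes kept their direction and side of the threshold, and 4 and 1 turned their direction. A further 1 and 5 passed the threshold where they had not, and 2 and 14 no longer passed it. Where a call changed, the cause was not tested. Fits with a library left out hold 1 library in 1 group, so their calls do not measure the spread in that group.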

Other observations

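Replicates were far apart in a few pathway genes, chosen here after their values were seen. TOP3A, a topoisomerase of nuclear and mitochondrial DNA, had 39 and 266 counts in control and 111 and 380 in Erastin libraries, a 6.71-fold gap between the control replicates and a log2 fold change of 0.68 that did not pass the test (adjusted p 0.4136 by edgeR). MRM1 had a 10.5-fold gap between its control replicates. Such gaps over 1.5-fold, in either group, were seen in 5 of the 74 pathway genes and in 0 of the 10 genes described first. Of the genes tested that had counts in every library, 14.4% differed that far between the control replicates and 14.6% between the Erastin replicates. Those shares are for each group alone, and the share with a gap in either group was not computed.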
